A study of Mus musculus with 8 samples.

Results

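The resting transcriptome of mouse inguinal white fat, a depot under the skin of the groin, is described here from the 4 control libraries of a series of 8. The control libraries were chosen by their genotype label alone. They came from 6-week-old mice carrying floxed Lsd1, while the other libraries of the series, from floxed mice crossed to Adipoq-Cre, were not used. Lsd1 is the protein made from Kdm1a, a histone demethylase, and the Adipoq promoter drives Cre in adipocytes. The labels describe the controls only as floxed and give neither sex, strain, diet nor time of collection, nor whether each library came from a separate animal, so the spread between libraries may be partly technical. Kdm1a itself had values of 699, 685, 799 and 735 in control replicates 1 to 4, which carry the numbers 518, 517, 358 and 357 in their titles.

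White fat is built around adipocytes, which store triglyceride in 1 large droplet. They take up fatty acids released from circulating lipoproteins, make fatty acids from glucose, and release them again when lipolytic hormones call. The inguinal pad of mice also holds beige adipocytes, which carry the uncoupling protein UCP1 and burn fuel for heat, together with progenitors, vessels, nerves and immune cells, and it encloses a lymph node. A library of the whole pad sums all of these, so a lower value cannot tell fewer cells of a type from less RNA per cell.

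Values are read counts multiplied by 1 factor per library, as deposited by the authors, and are called scaled reads below. The libraries held 27666408 to 29442190 recovered reads, and their scaled totals lay between 14121524 and 14369969. All pairs of libraries differed by a chi-square of at least 23.0 per degree of freedom, where counting noise of read pairs alone gives 1, so none was a copy of another. Of 22639 genes, 15869 had a value above 0 in all 4 libraries, 4151 were at 0 in all 4, and 10910 had a mean of at least 100 and carried 97.3% of the reads. Transcripts of the Y chromosome were present in every library. Ddx3y, an RNA helicase gene, had values of 1404, 1162, 1533 and 1402, and Uty, Kdm5d and Eif2s3y were at 315 or more in each, while Xist, the RNA that silences an X chromosome in female cells, was at 0, 0, 3.43 and 0.

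A small set of genes headed the libraries, led by the lipid genes Scd1 and Fasn. The 10 genes with the highest mean held 11.4% ± 0.988 (SD, n = 4) of all reads, and between 879 and 1081 genes were enough to reach 50% of a library. Replicate 3 was the least concentrated, with 9.92% of its reads in those 10 genes and 1081 genes needed for 50%, against 879 to 918 in the other libraries. The highest share belonged to Scd1 (chr19:44394450-44407709, GRCm38.p6), the desaturase that makes oleate. Its values were 506857, 438659, 287540 and 508717 scaled reads, or 3.05% ± 0.712 of a library. Replicate 3 was the low one. Fasn, fatty acid synthase, followed with 396320, 202469, 195752 and 302200, so that replicate 1 stood at 2.02 times replicate 3. The next 8 were Car3 (carbonic anhydrase 3), Gsn (gelsolin), Cfd (adipsin), Fabp4 (the adipocyte fatty acid carrier), Lpl (lipoprotein lipase), Col3a1 (a fibrillar collagen), Sparc (a matrix glycoprotein) and Neat1 (a nuclear noncoding RNA), with shares from 1.18% down to 0.383%.

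**Figure D1:**
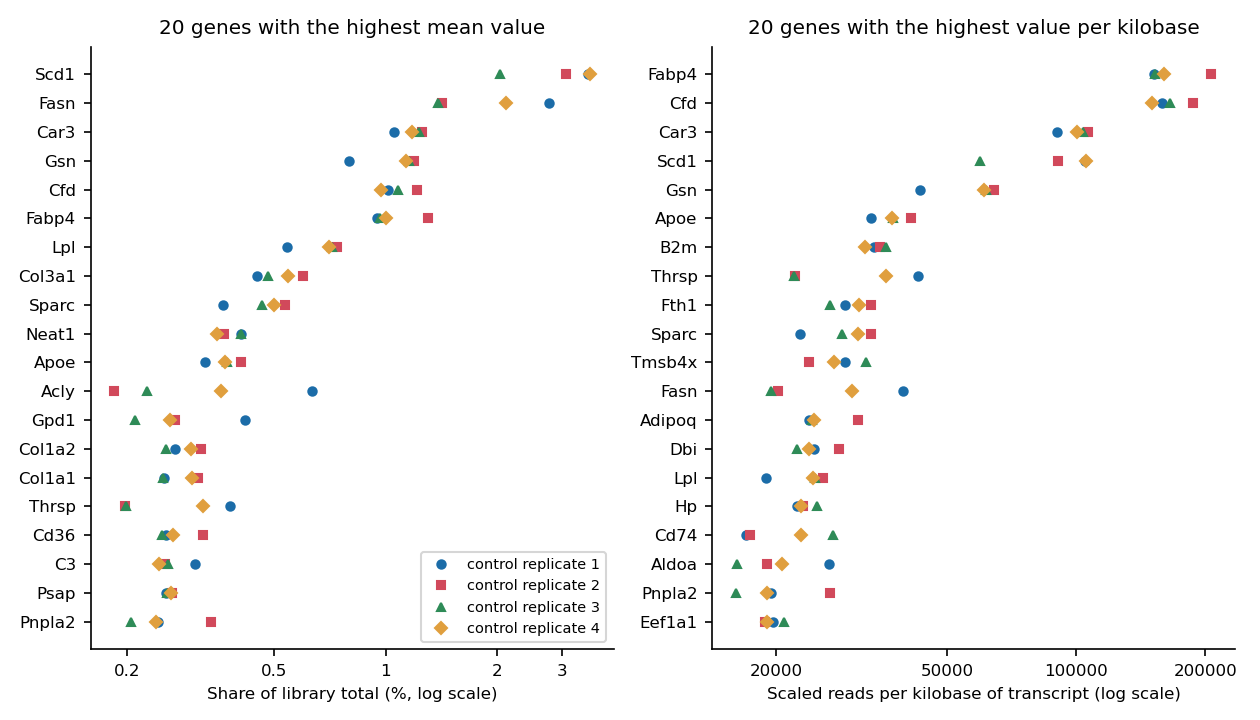
Left, share of each library's total (percent, log axis) for the 20 genes with the highest mean; right, scaled reads per kilobase of transcript (log axis) for the 20 genes highest on that scale; each symbol is 1 of the 4 control libraries. Scd1 lies apart in replicate 3, at 2.04%, and Fasn, Acly and Thrsp spread more widely than Car3 or Psap.

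Long transcripts collect more reads, so genes were compared with each other per kilobase. On that scale Fabp4 was first, at 167680 ± 26216 (SD, n = 4) scaled reads per kilobase, and Cfd nearly level at 165219 ± 16100 (SD, n = 4). Their order was not the same in every library, since Cfd had the higher value per kilobase in replicates 1 and 3. Car3 (100178) and Scd1 (90117) came next, and then Gsn, Apoe (apolipoprotein E), B2m (the light chain of class I histocompatibility molecules), Thrsp (a nuclear lipogenic factor), Fth1 (ferritin heavy chain) and Sparc. Of the 10 highest genes by mean, 6 were also among the 10 highest per kilobase. Fasn, with a long transcript, dropped to 27282 per kilobase. Other adipocyte products were lower: Adipoq (adiponectin) reached 25853 per kilobase, Cidec (a droplet fusion protein) 17507, Retn (resistin) 9831, Plin1 (the droplet coat perilipin) 9315 and Lep (leptin) 2029.

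All 30 genes of a general adipocyte list had a mean of at least 100, and together they made up 11.9% ± 1.15 of the reads. Collagen chains made up 1.64% ± 0.173, and progenitor and fibroblast genes 1.48% ± 0.206, most of it Gsn. Pdgfra, the receptor that marks adipose progenitors, had values of 1931, 1748, 1835 and 2022, and Pi16, a marker of the earliest progenitors, 9210, 9691, 13449 and 11342. Vessels were represented by Cdh5, the endothelial cadherin, at 3978, 3780, 4080 and 4511. Macrophages were represented by Lyz2 (lysozyme) at 12149, 9307, 12810 and 11124 and C1qa (a complement subunit) at 3940, 3592, 3362 and 3305. Of 22 macrophage and myeloid genes with a mean of at least 100, 10 were highest in replicate 1, where 19.2% of all genes were, and the median range of a member was 0.41 on the log2 scale, against 0.32 over all genes. Mast cells were represented by Cpa3, a granule protease, at 467, 462, 341 and 448.

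Most epithelial genes were near 0. Of 30 mammary and glandular epithelial genes, 19 had a mean under 10 and 3, Wap, Csn1s1 and Csn1s2a, were at 0 in all libraries. Krt8, a keratin of luminal epithelium, had values of 0, 1.97, 0.98 and 1.03. Other members of that list were low but present in every library. Cdh1, the epithelial cadherin, had 49.8, 55.0, 66.1 and 59.8, and Epcam, an epithelial adhesion protein, 21.0, 12.3, 38.7 and 21.7. Krt5 was at 0.49, 0, 0 and 0 and Krt14 at 0, 0.98, 0 and 0, both keratins of basal epithelium and skin, and Dsg3 and Ivl were at 0 throughout. Genes of differentiated keratinocytes were not all absent, since Krt10, a keratin of upper skin layers, had 52.7, 62.4, 64.6 and 78.9 and Krtdap, a keratinocyte differentiation protein, 40.5, 39.8, 37.7 and 48.0. The 18 basal epithelial and skin genes summed to 896, 542, 583 and 818. The exceptions past a mean of 100 were Esr1 (oestrogen receptor, 457, 299, 222 and 229) and Trps1, and Oxtr (oxytocin receptor, 545, 221, 211 and 375) and Dmkn. The first 3 are not restricted to epithelium, whereas Dmkn is a protein of differentiated keratinocytes. Zic1, a marker of classical brown fat, was at 1.95, 0.98, 0 and 0. Lhx8, also used as such a marker, was not near 0, at 50.76, 94.85, 54.84 and 39.71.

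Levels of genes with near-identical copies elsewhere in the genome are uncertain, since how reads with several matches were counted is not given in the sources used here. Gapdh, which has many processed pseudogenes, had values of 73.7, 50.6, 38.2 and 37.1 against 40058, 28721, 24396 and 31103 for Aldoa, the enzyme before it in glycolysis. Of 86 cytosolic ribosomal protein genes, only 58 had a mean of at least 100. Whether sequence copies lowered these values was not tested.

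Most genes were steady. Spread was measured as the SD of log2(value + 1) over the 4 libraries in the 10910 genes with a mean of at least 100, and a gene was called wide when its highest library exceeded its lowest at least 2-fold. The median SD was 0.14 on the log2 scale, against 0.06 from sampling of read pairs alone, and 89.2% of genes exceeded their own sampling SD. In all, 573 genes (5.25%) had a 2-fold range, and 60 had a 4-fold range. Leaving out replicate 2 or replicate 3 lowered the count to 267 or 321. Among the steadiest genes at a mean of at least 1000, Entr1, an endosome trafficking gene, had values of 1298, 1279, 1291 and 1300, with 24.4% of its exon bases also covered by a predicted antisense gene. Dennd5a, a Rab regulator, had 2596, 2552, 2578 and 2554, and Ubqln1, a shuttle for ubiquitinated proteins, 3107, 3090, 3172 and 3124. Psme3, Dnajb11, Cops7a and Morf4l2 were as narrow, with a highest library 1.02 times the lowest in each. Actb, often used as a reference, was not among them, at 25491, 23020, 29718 and 29819.

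Spread depended on level at both ends. A 2-fold range was found in 8.95% of genes with a mean of 100 to 300, in 3.01% of those between 1000 and 3000, and in 10.4% of the 115 genes at 10000 or more. The wide genes at the top were mainly lipogenic, among them Fasn, Acly and Me1.

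**Figure D2:**
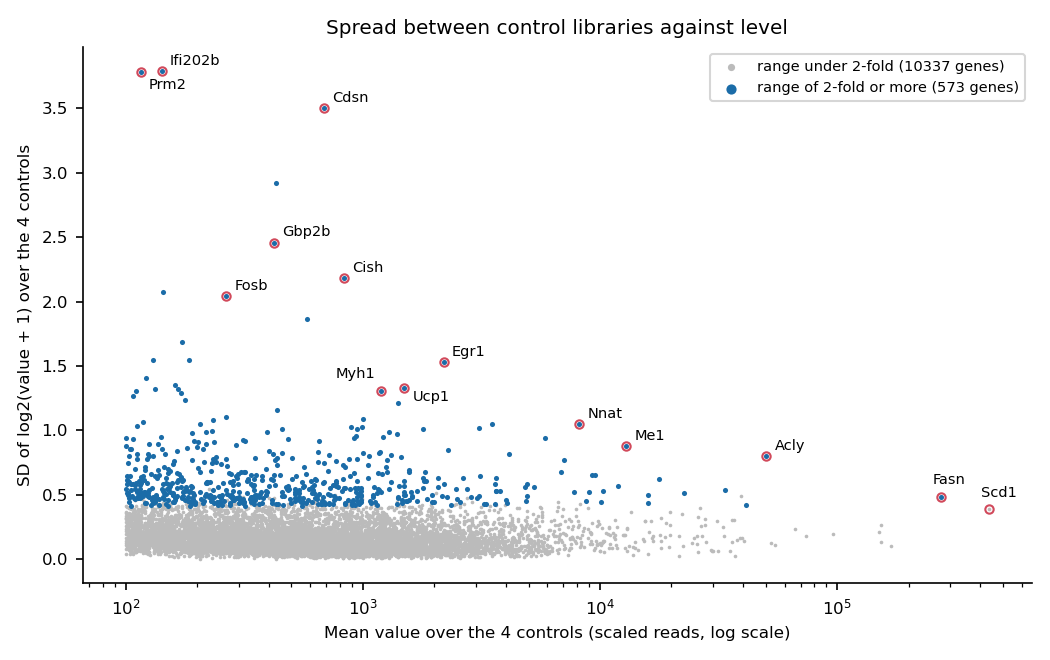
SD of log2(value + 1) over the 4 control libraries against the mean value (scaled reads, log axis) for the 10910 genes with a mean of at least 100; blue points have a highest library at least 2-fold above the lowest. The widest genes were Prm2, Ifi202b and Cdsn, at the upper left, and at the right edge Fasn and Acly stand above the other abundant genes.

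The spread was not shared evenly among libraries. By the number of genes at least 2-fold apart, replicates 2 and 3 were the most unlike, with 305, and replicates 3 and 4 the most alike, with 84. By chi-square per degree of freedom, which weighs abundant genes more, replicates 1 and 3 differed most, at 49.6 against 38.7 for replicates 2 and 3. Sorted by the largest gap in their values, 158 of the wide genes (1.45% of all genes) set replicate 2 below the other libraries, 70 (0.642%) set replicate 1 above, and 62 (0.568%) set replicate 4 below. Replicate 3 was the highest library for 40% of all genes, replicate 2 for 26.3%, replicate 1 for 19.2% and replicate 4 for 14.5%. These shares depend on the scaling: with median-of-ratios size factors, which were 0.978 to 1.04, replicate 3 was highest for 27.5% and replicate 2 for 33.9%.

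For each of 38 gene lists, a score was taken in each library as the mean, over members with a mean of at least 100, of the log2 difference from the member's own mean. The widest range was that of skeletal muscle genes, 1.84 log2 units, and it rested on replicate 4, without which it was 0.43. Immediate early genes (1.10) and B cell genes (1.08) were next, each at 0.67 without replicate 2. Fatty acid and triglyceride synthesis had a range of 0.89, or 0.46 without replicate 1, T cell and NK genes 0.87, or 0.44 without replicate 2, and thermogenic genes 0.84, which stayed at 0.58 or more without any 1 library. At the other end were translation factors (0.07), endothelial genes (0.09), and pericyte and smooth muscle genes (0.11), which were at 0.02, 0.15 and 0.17 with median-of-ratios scaling. A low score range need not mean steady members, since members can move in different directions. The median range of a single member was 0.19, 0.30 and 0.38 in these lists, against 0.32 over all genes.

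**Figure D3:**
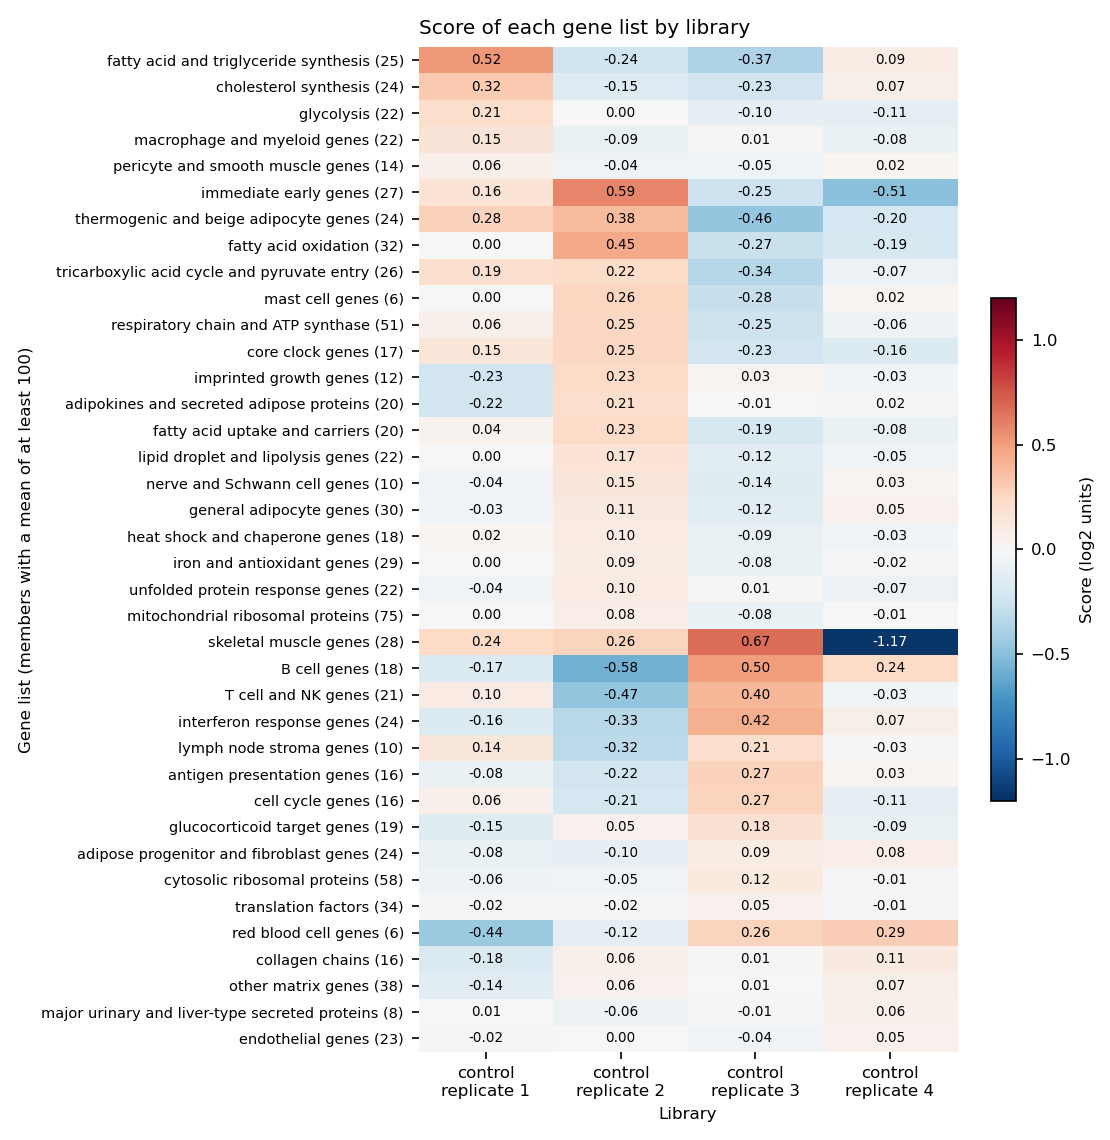
Score of each gene list (rows, with the number of members used) in each control library (columns), in log2 units; red is above and blue below the members' own means. Lipid synthesis is highest in replicate 1, oxidation and respiration in replicate 2, lymphocyte and interferon genes in replicate 3, and muscle genes are at -1.17 in replicate 4.

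Genes for making fat were highest in replicate 1. Of the 25 genes for fatty acid and triglyceride synthesis with a mean of at least 100, out of 30 listed, 20 were highest in replicate 1, where 19.2% of all genes were, and 16 were lowest in replicate 3, where 17.9% of all genes were. A 2-fold range was found in 11 (44%), against 5.25% of all genes. Acly, which cuts citrate into the acetyl-CoA used for fatty acids, had values of 91137, 26332, 31899 and 51146. Slc25a1, which exports that citrate from mitochondria, had 29829, 12229, 11597 and 17077. In both genes replicate 1 stood alone above the other libraries. Me1, the malic enzyme that supplies NADPH, had 26702, 7954, 6970 and 9993, a 3.83-fold range, and Elovl6, which lengthens palmitate, had 12820, 5227, 3580 and 6670. The transcription factors of the pathway moved over a narrower range. Srebf1, which answers to insulin, had 18122, 13454, 9781 and 12422, and Mlxipl, which answers to glucose, 6726, 4159, 4098 and 5787. Pck1, which makes glycerol for triglyceride from pyruvate, had the reverse order, with 14499, 28188, 30280 and 17598.

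Cholesterol synthesis shared part of this pattern. Of 24 genes, 19 were highest in replicate 1, against 19.2% of all genes, and 8 (33.3%) had a 2-fold range, against 5.25%. Sqle, squalene epoxidase, had 960, 391, 413 and 650. Hmgcs1, an early enzyme of the pathway with 12.1% of its exon bases under an antisense gene, went against the list, at 3528, 3935, 5275 and 4603. In glycolysis 14 of 22 genes were highest in replicate 1, against 19.2% of all genes. The widest of them, Pgam2, had 356, 310, 373 and 145 and belongs to the muscle list as well.

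Genes for burning fat were highest in replicate 2. All 32 fatty acid oxidation genes with a mean of at least 100, of 33 listed, were highest there, against 26.3% of all genes, and the count was the same with median-of-ratios scaling. A 2-fold range was found in 8 (25%), against 5.25% of all genes. Acadl, the long-chain acyl-CoA dehydrogenase, had values of 8633, 12866, 6292 and 7140, and Acaa2, the last enzyme of the spiral, 4274, 7828, 3115 and 4137. Replicate 2 was alone on top in both. Acadvl, the very-long-chain enzyme, had 9469, 12084, 6311 and 7670, but 42.9% of its exon bases are shared with Dvl2 on the opposite strand, and the counting is not stated to use strand. Pdk4, a kinase that shuts pyruvate out of mitochondria, had 2200, 5192, 3140 and 1897.

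The mitochondrial lists followed with smaller steps. Of 51 respiratory chain and ATP synthase genes, 45 were highest in replicate 2, where 26.3% of all genes were. The lowest library was replicate 3 for 45 of them, against 17.9% of all genes, and none had a 2-fold range. Atp5b, the catalytic subunit of ATP synthase, had 33875, 40746, 27056 and 30853. In the tricarboxylic acid cycle list 24 of 26 genes were lowest in replicate 3, against 17.9% of all genes. Sdha, the flavoprotein of succinate dehydrogenase, had 13708, 15422, 10473 and 12122. General adipocyte genes had replicate 2 on top in 19 of 30 cases, against 26.3% of all genes, but a score range of only 0.23. Adipoq was at 30754, 39979, 31282 and 31592, and Cidec at 29346, 31403, 30307 and 28205.

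By score, thermogenic genes were high in replicates 1 and 2 and low in replicate 3. Of 37 listed, 24 had a mean of at least 100, and 11 of these (45.8%) had a 2-fold range, against 5.25% of all genes. Of the 24, 14 were highest in replicate 2 and 7 in replicate 1, against 26.3% and 19.2% of all genes. Replicate 3 was lowest for 14, against 17.9% of all genes. Ucp1 (chr8:83290348-83298456), the proton leak of brown and beige fat, had values of 3189, 1639, 384 and 756, so that the highest library stood 8.31-fold above the lowest. Cidea, a droplet protein of thermogenic adipocytes, had 5856, 7094, 2884 and 3859. Cox8b, a respiratory subunit of brown and beige fat, had 1576, 2394, 938 and 1064, and Cox7a1, another, 406, 745, 189 and 275. Replicates 1 and 2 were above replicates 3 and 4 in all 4 of these genes. Cpt1b, the mitochondrial fatty acid gate of muscle and brown fat, had 1784, 2330, 703 and 972, although 81.4% of its exon bases also belong to a joint transcript model with the neighbouring gene. Skeletal muscle also expresses Cpt1b and Cox7a1. The muscle list was highest in replicate 3 and lowest in replicate 4, and its part in the values of these genes was not tested. Members differed in which of the upper libraries led. Acot11, a thioesterase with 20.9% of its exon bases shared with Fam151a, had 2309, 500, 434 and 748, and Elovl3, a cold-induced elongase, 256, 45.2, 17.1 and 30.9, with replicate 1 alone on top. Slc27a2, an acyl-CoA synthetase, had 127, 504, 40.6 and 70.1, with replicate 2 on top. Some members did not take part. Prdm16, the regulator of the beige programme, was at 255, 243, 306 and 323, and Ebf2 was level at 462, 475, 474 and 414. Replicate 1 was the lowest library for 4 of the 24, among them Ppargc1a, at 135, 266, 179 and 155.

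**Figure D4:**
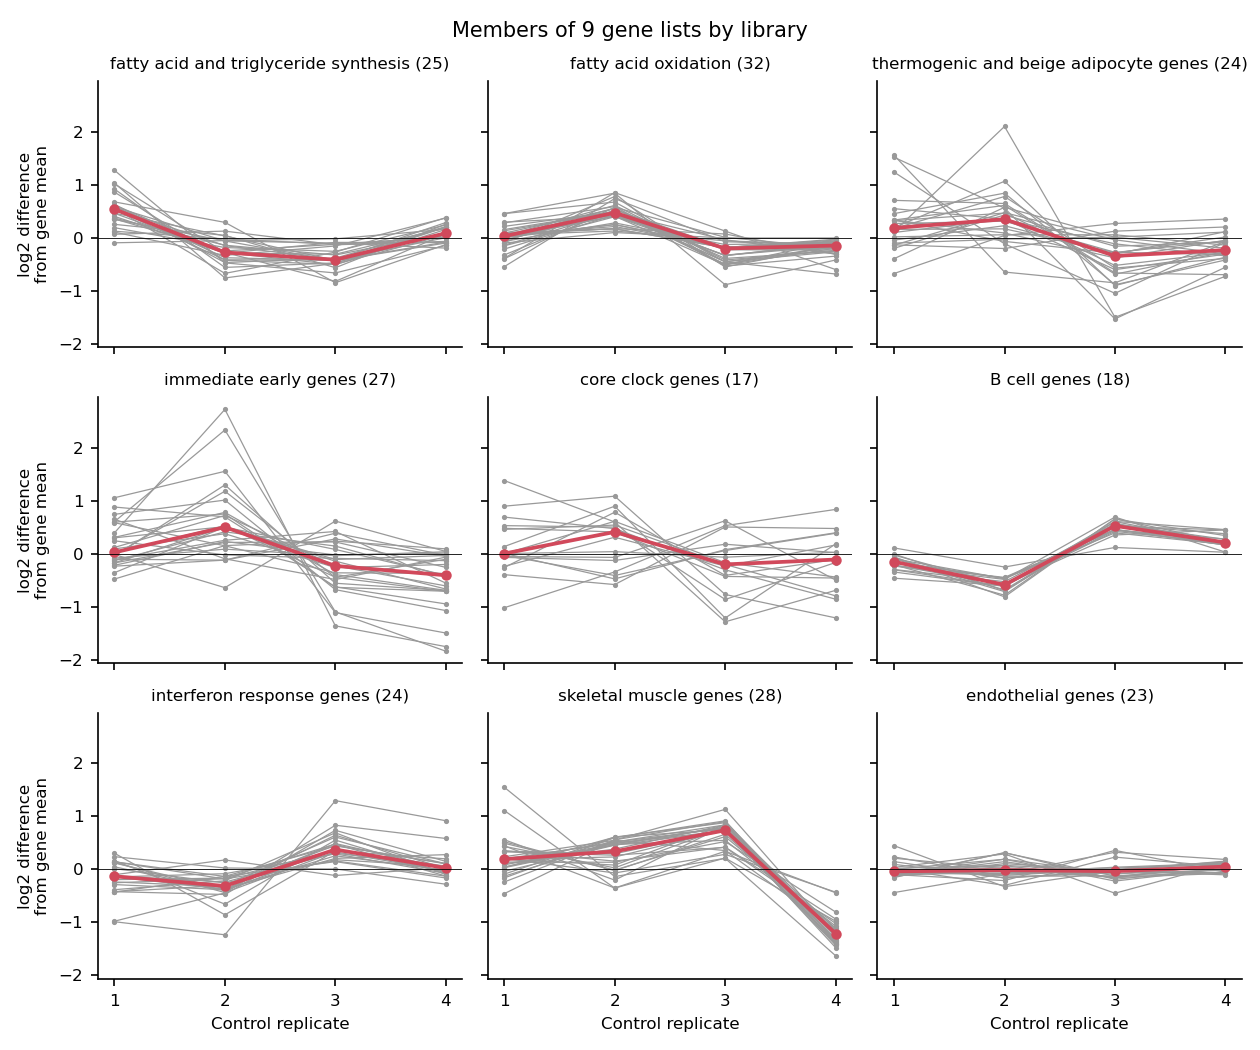
log2 difference of each gene from its own mean over the 4 control libraries, for the members with a mean of at least 100 of 9 gene lists; grey lines join the libraries of 1 gene, imply no order among replicates, and the red line is the median. Members of the fatty acid oxidation, B cell and muscle lists run nearly parallel, clock genes split into opposite groups, and endothelial genes stay near 0.

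Several genes that answer a stimulus within minutes, and several daily clock genes, set replicates 1 and 2 apart from replicates 3 and 4. Of 27 immediate early genes past the mean of 100, 17 were highest in replicate 2, where 26.3% of all genes were. The lowest library was replicate 4 for 17, against 18.4% of all genes. A 2-fold range was found in 13 (48.1%), against 5.25% of all genes. Fos, a subunit of the AP-1 factor, had values of 482, 1600, 147 and 87.7, an 18.3-fold range. Fosb, its relative (chr7:19302696-19310118), had 161, 814, 47.0 and 35.6, and Egr1, a zinc finger factor, 3118, 4408, 693 and 531. In these 3 genes both upper libraries were clear of both lower ones. Nr4a1, a nuclear receptor, had 553, 1272, 411 and 343, while Klf6 was level at 1993, 2239, 2057 and 2165. Replicate 3 was the highest library for 6 members, among them Dusp2, at 509, 330, 789 and 530.

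Of 19 clock genes 17 had a mean of at least 100 and 11 (64.7%) had a 2-fold range, against 5.25% of all genes. Members lay on opposite sides. Dbp, an output factor of the clock, had values of 650, 741, 204 and 150, with 18.0% of its exon bases shared with Sphk2. Per3, a period gene, had 838, 720, 420 and 286, Tef, an output factor, 2692, 2567, 1434 and 1404, and Bhlhe40, a repressor, 2844, 1654, 448 and 676. These were highest in replicates 1 and 2. Arntl (chr7:113178471-113314126), the activator BMAL1, had 348, 305, 649 and 636, and Npas2, a partner of it, 71.3, 114, 211 and 260, so both were highest in replicates 3 and 4. Clock, the usual partner, was level at 815, 782, 968 and 867. Per1, another period gene, kept to neither side, at 913, 903, 1458 and 670. Cdkn1a, a cell cycle inhibitor named after its values were seen, sided with Arntl at 597, 643, 1456 and 1521. Glucocorticoid targets had no common order: Tsc22d3 (the protein GILZ) was at 1893, 2149, 4467 and 2431, and Angptl4, an inhibitor of lipoprotein lipase, at 3106, 4821, 7172 and 4496, with replicate 3 highest in both, but the list score ranged over 0.33 only. Collection times were not given, and the part of time of day in these differences was not tested.

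Lymphocyte genes were lowest in replicate 2 and highest in replicate 3. Of 18 B cell genes past the mean of 100, 17 were highest in replicate 3, where 40% of all genes were. All 18 were lowest in replicate 2, where 35.5% of all genes were. A 2-fold range was found in 13 (72.2%), against 5.25% of all genes. Cd22, an inhibitory receptor of B cells, had values of 1440, 968, 2619 and 2112. Cxcr5, which guides B cells into follicles, had 377, 223, 622 and 456. The order was the same in both. T cell and NK genes were close to it, with 20 of 21 highest in replicate 3 and 21 of 21 lowest in replicate 2. Over all genes these shares were 40% and 35.5%. A 2-fold range was found in 8 (38.1%), against 5.25% of all genes. Tcf7, a T cell factor, had 1961, 1176, 2570 and 1732, and Il7r, the receptor of a survival cytokine, 804, 460, 1209 and 616. For these members replicate 1 lay above replicate 4, the reverse of the B cell genes. Stromal genes of lymph nodes varied less. Ccl21a, the chemokine that draws T cells in, had 2612, 2415, 3586 and 2691, Glycam1, a mucin of the node's venules, 1644, 952, 1229 and 1165, and Cr2, carried by follicular dendritic and B cells, 736, 478, 1196 and 908. In cell cycle genes 14 of 16 were highest in replicate 3, against 40% of all genes. Mcm6, a replication helicase, had 383, 164, 434 and 337. Whether lymph node tissue moved the cell cycle genes was not tested. Antigen presentation had 15 of 16 members highest in replicate 3, against 40% of all genes. With median-of-ratios scaling 10 of 16 were, against 27.5% of all genes. Cd74, the invariant chain, had 20799, 21193, 33167 and 27936.

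Interferon response genes were highest in replicate 3 in 21 of 24 cases, against 40% of all genes. With median-of-ratios scaling 18 were, against 27.5% of all genes. Interferon acts through the factor complex ISGF3, which binds a DNA element in which GAAA, 2 bases of any kind and GAAA again follow each other. The 250 bases before each RefSeq start (GRCm38.p6) of 16 list members with a promoter entry were searched for it on both strands. A gene with several starts counted if any of them had a match. Of the 16, 10 (62.5%) held it, against 3.20% of the 8699 genes with a mean of at least 100 and an entry. Stretches of 90 bases around the matches of Isg15, Ifit1, Ifit3 and Oas1a are shown because these members were highest in replicate 3 together, with the matches in capitals. They lie at chr4:156200841-156200930 (minus strand), chr19:34640754-34640843 (plus), chr19:34583350-34583439 (plus) and chr5:120907526-120907615 (minus), and are written 5′ to 3′ along the gene.
Isg15: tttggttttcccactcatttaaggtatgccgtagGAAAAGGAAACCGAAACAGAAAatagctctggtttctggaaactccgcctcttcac
Ifit1: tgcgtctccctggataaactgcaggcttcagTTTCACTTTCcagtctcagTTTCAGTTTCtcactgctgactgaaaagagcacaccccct
Ifit3: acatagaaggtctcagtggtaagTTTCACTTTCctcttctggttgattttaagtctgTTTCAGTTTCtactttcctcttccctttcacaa
Oas1a: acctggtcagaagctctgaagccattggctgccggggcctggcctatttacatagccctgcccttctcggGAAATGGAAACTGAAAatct

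Isg15 held 3 overlapping matches, Oas1a 2 overlapping ones, and Ifit1 and Ifit3 each 2 separate matches on the strand opposite to the gene. The Ifit3 stretch lies within the span of its gene and the Oas1a stretch runs into its gene, so the starts used there were not the outermost. Isg15, a ubiquitin-like protein, had values of 167, 188, 354 and 204. Ifit1, which binds foreign RNA ends, had 238, 222, 454 and 294, and its neighbour Ifit3 398, 383, 889 and 592. In each the order of libraries 3, 4 and then both others was the same, as in Oas1a, an RNA sensor, at 103, 113, 212 and 150. Ifi44 was the widest member, at 64.9, 54.5, 320 and 246. Gbp2 and Ifi27 did not follow: Gbp2, which held a match as well, had 1276, 1101, 1087 and 890, highest in replicate 1. The members with sequences shown were picked by their values, and whether a match went with replicate 3 was not tested. A match is a string of letters and says nothing of binding in this tissue.

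Skeletal muscle transcripts were present in every library and, past a mean of 100, lowest in replicate 4. Of 35 muscle genes measured, 28 had a mean of at least 100, and all 28 were lowest in replicate 4, where 18.4% of all genes were. Replicate 3 was highest for 24, against 40% of all genes. A 2-fold range was found in 26 (92.9%), against 5.25% of all genes. Summed over the list, muscle genes made up 0.257%, 0.287%, 0.379% and 0.098% of the reads. Acta1, skeletal actin, had values of 6567, 6347, 8632 and 1982, and Ckm, muscle creatine kinase, 2470, 4011, 4842 and 990. The myosins of fast fibres did not keep a fixed ratio. Myh4 (chr11:67237812-67260447), of the fastest fibres, had 2109, 4253, 6352 and 1230, whereas Myh1 (chr11:67200102-67224577), its neighbour in the same gene cluster, had 2630, 817, 1037 and 289. Replicate 1 was thus highest for Myh1 and next to lowest for Myh4, and Mybpc1, a myosin binding protein, sided with Myh1 at 545, 197, 292 and 127. Genes of slow fibres were near the floor, and several were highest in replicate 4, the reverse of the list. Myh7 was at 5.37, 3.44, 3.92 and 38.2, and Tnnt1 at 7.81, 6.88, 11.75 and 19.08. Myl2 and Tnnc1 were also highest there, while Myl3 and Tnni1 were highest in replicate 1.

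Secreted products and matrix varied on their own lines. Nnat (chr2:157560078-157562525), an imprinted gene of adipocytes and brain, had values of 2509, 13218, 9992 and 6923, the widest of 20 adipokine and secretory genes, and replicate 1 was the low one. Leptin mRNA, Lep, was at 4880, 9535, 5103 and 6938, highest in replicate 2, while Retn was level at 11738, 10941, 10311 and 11800. Of 16 collagen chains 11 were lowest in replicate 1, and of 38 other matrix genes 24, against 28.2% of all genes. Col3a1 was at 64526, 85200, 67785 and 77802 and Sparc at 52282, 76413, 65402 and 71226. Red blood cell transcripts were also lowest in replicate 1 by score (-0.44), with Hba-a1, an alpha globin that shares sequence with Hba-a2, at 2087, 3386, 4601 and 4520. Cytosolic ribosomal protein genes were highest in replicate 3 in 43 of 58 cases, against 40% of all genes. With median-of-ratios scaling 32 were, against 27.5% of all genes. Rplp0 was the widest, at 2296, 3486, 5677 and 3661. The lipid-laden macrophage gene Trem2, a lipid receptor, had 256, 283, 63.2 and 156, lowest in replicate 3, where thermogenic genes were lowest too.

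Replicate 1 also held transcripts that belong to male germ cells. Prm2 (chr16:10791377-10792105), a protamine that packs sperm DNA, had values of 450, 9.34, 2.94 and 0. Its neighbours in the same cluster behaved alike: Prm1, the other protamine, had 282, 3.44, 2.45 and 1.03, and Tnp2, a transition protein that precedes them on chromatin, 328, 0.49, 5.88 and 1.03. Tnp1, on another chromosome, had 211, 0, 2.94 and 0, Akap4, of the sperm tail, 178, 3.93, 0 and 0, and Ldhc, the lactate dehydrogenase of sperm, 168, 0, 1.47 and 0.52. No other library came near these values. A list of 30 spermatid and sperm genes was written after these were seen, so its direction is a description only, and 2 of its members had a mean of at least 100. Without Odf2, which many tissues express, the summed value of the list was 3123 in replicate 1 against 278, 294 and 245 in replicates 2 to 4. Counting every gene at 10 or more in 1 library and at no more than 0.1 of that in each of the others, replicate 1 had 200 such genes and replicates 2 to 4 had 1, 1 and 4. Of the 200, 17 were on the spermatid list, and Cish, which is no germ cell marker, was another. A list of 12 meiotic genes was also written after values were seen, and 6 of its members had a mean under 10. Of the 12, 8 were highest in replicate 1. That library was highest for 27.9% of all genes with a mean of 10 to 100 and for 19.2% of those at 100 or more. No such share was taken for genes under 10, so neither is a like background for all 12 members. The list summed to 1475, 1234, 898 and 1076 in replicates 1 to 4. Mael, a piRNA factor on it, had 65.9, 0.98, 1.47 and 0. Markers of Sertoli and Leydig cells summed to 6420, 5114, 7387 and 5763, most of it Clu, and 13 epididymal genes all had a mean under 10. Their part in the other differences of replicate 1 was not tested, and the spermatid sum was 0.0284% of its reads.

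**Figure D5:**
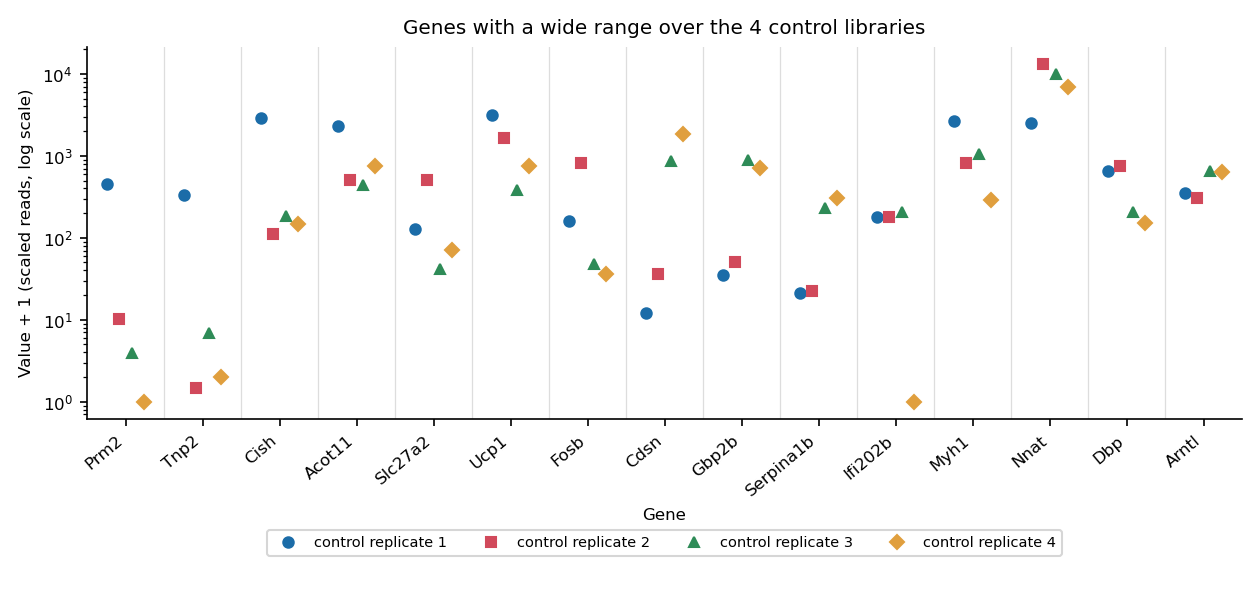
Value + 1 (scaled reads, log axis) of 15 genes with a wide range, with each control library as its own symbol. Prm2, Tnp2, Cish and Acot11 have replicate 1 alone on top, Cdsn, Gbp2b and Serpina1b have replicates 3 and 4 above replicates 1 and 2, and Ifi202b is listed at 0 in replicate 4.

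Several single genes had 1 library far from the others. Cish, a feedback inhibitor of cytokine signalling (chr9:107296659-107302784), had values of 2898, 111, 182 and 148, replicate 1 being 26.2-fold above the lowest. Cd5l, a macrophage secretory protein, had 338, 29.5, 44.1 and 109, and Slfn4, a myeloid gene of the schlafen family, 81.5, 33.4, 514 and 60.3. Ifi202b (chr1:173962569-173982844), an interferon-inducible gene of the Ifi200 cluster, had 180, 179, 208 and 0. A count of 0 in replicate 4 allows up to 3 reads. In replicate 4 Ccl7, a monocyte chemokine, was low too, at 258, 303, 308 and 64.0. In replicate 2 Sorl1, a sorting receptor, was low at 1509, 428, 1218 and 1081.

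A further group set replicates 1 and 2 against replicates 3 and 4, with 81 wide genes (0.742% of all genes) on either side of that split. Cdsn (chr17:35543101-35557180), corneodesmosin, known from skin, had values of 11.2, 34.9, 852 and 1851. Among skin genes Krt5 and Krt14 were near 0 in all libraries. Krt10, Krtdap and Dmkn (113, 114, 104 and 169), a protein of differentiated keratinocytes, were highest in replicate 4, as Cdsn was. Krtdap and Dmkn were lowest in replicate 3, though, where Cdsn was at 852. Other members of the skin list had another library on top, with Sfn highest in replicate 3 (100, 62.4, 123 and 102) and Trp63 in replicate 1 (27.8, 16.2, 12.7 and 16.5). The part of skin in the Cdsn values was not tested. Gbp2b (chr3:142594816-142619179), a guanylate-binding protein of a family of similar genes, had 34.2, 49.6, 889 and 708. Serpina1b, of the nearly identical alpha-1 antitrypsin genes, had 20.5, 21.6, 230 and 303, and Hmga1, which shares its sequence with Hmga1b, 80.5, 55.0, 331 and 245. Pla2g12a, a phospholipase, went the other way at 591, 613, 186 and 182. In each of these genes both libraries of a side lay beyond both libraries of the other side.

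The positions of these genes are given as a description, with no test. On chromosome 17 there were 11 of them, 2.00% of its 551 genes, against 0.742% of all genes. All 11 lay between 6954965 and 35822911, among 301 genes there with a mean of at least 100 (3.65%). In that stretch 11 further genes had a 2-fold range with another split. The genes of the split included Cdsn, Hmga1, Cdkn1a and the class II histocompatibility genes H2-Ob (1300, 1005, 2320 and 1754) and H2-DMb2. Of the 11, 7 were higher in replicates 3 and 4 and 4 in replicates 1 and 2. On chromosome 3 there were 10, 1.91% of its 524 genes, against 0.742% of all genes. Of the 10, 9 lay between 115881578 and 153944643, among 116 genes there with a mean of at least 100 (7.76%). In that stretch 8 further genes had a 2-fold range with another split. Gbp2b, Ifi44, Ddah1 and Alpk1 were higher in replicates 3 and 4. Ddah1, which clears methylarginines, had 51.7, 50.1, 188 and 183. Pla2g12a, Acadm, Adh1 and Ccn1 were higher in replicates 1 and 2. Members of lists that moved between libraries were among the genes of both regions: H2-Ob and H2-DMb2 had the library order of Cd22 in B cells, Acadm was on the fatty acid oxidation list, Ifi44 on the interferon list, and Ier3 and Ccn1 on the immediate early list. Other patterns were uneven over chromosomes as well: of the 623 genes on chromosome 1, 27 (4.33%) had replicate 2 alone on 1 side of the gap, against 1.91% of all genes. Both regions were picked out after the positions were seen, and the strain of the mice was not given.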

How the data were processed

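RNA from inguinal fat was measured in 4 control libraries of 1 group. The submitters' notes and design text state alignment to mm10 by TopHat version 2, counting by HOMER, and the use of edgeR and DESeq version 1.8.3 for a comparison not analysed here. The sources used here do not name the annotation, the strand setting or how values were scaled. The values deposited by the authors are a signal: within a tolerance of 0.011, 100% of them were whole multiples of 1 step per library (0.488 to 0.516). Even multiples made up 54.1 to 56.2% of low values, so a step can be 1 end of a read pair. Sampling noise was therefore taken from read pairs and covers counting error only.

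Symbols came from RefSeq (GRCm38.p6) for 22527 accessions and from GENCODE M21 for 124. The 721 unmatched rows (1.62% of reads) and 1 blank row are no genes here. For 12 symbols with several rows, only the largest row by total was used. Transcript lengths, from GENCODE M21, covered 98.5% of genes. The pseudocount was 1. No p-value was computed, since 1 group allows no comparison. Python 3.11.15, pandas 2.3.3 and numpy 2.4.6 were used.

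The 41 gene lists, 4 further lists written after the values were seen, and the choice of libraries were made with earlier results of these data known. Named genes were the 10 highest by mean and per kilobase, the 3 highest and the widest of each list, the 20 widest and 10 steadiest genes, the 5 with the largest gap for each frequent pattern, sex-linked genes and markers at 0. Other list members, the further germ cell genes and those of the chromosome regions were named after their values were seen, and some genes that this rule names are not reported here. Alternatives were other scalings, pseudocounts, filters on the mean, summed or unmatched rows, and leaving out each library.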

Additional observations from a re-analysis of the deposited data

Results flagged for a closer look

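For 130 named genes and 38 list scores, the gap between the highest or lowest library and its neighbour was set against the whole range of the 4 libraries. Chance puts about 1 group in 20 past the limit used. No list score passed, and 9 genes did. In replicate 1, Gsn was low at 114468, and Prm1 (282) and Cish (2898) were high. In replicate 2, Adipoq was high at 39979. In replicate 3, Ifi27l2a was high at 8637, Cpa3 was low at 341, and Xist was at 3.43 against 0 in the other libraries. In replicate 4, Myh7 was high at 38.2 and Ifi202b was at 0.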

How the results depend on the processing

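No paired analysis was possible because only 1 group was used and its sample numbers are shared with no other. The counts of genes with a mean of at least 100 (10854 to 10930 over 7 alternatives), the share of the 10 highest genes and the median SD moved little. The number of genes with a 2-fold range was 1623 at a mean of at least 10 and 119 at 1000, and 267 to 477 with a library left out. Under alternatives chosen after seeing the data it was 524 without the muscle, spermatid and lymphocyte members, and 581 from recovered reads scaled to their mean total. Wide genes with replicate 2 low numbered 365 at a mean of at least 10 and 16 at 1000. Leaving out 1 library gave score ranges of 0.22 to 0.44 for adipokines, 0.12 to 0.29 for lipolysis, 0.23 to 0.42 for fatty acid uptake, 0.46 to 0.89 for fatty acid synthesis, 0.30 to 0.55 for cholesterol synthesis, 0.27 to 0.72 for fatty acid oxidation, 0.29 to 0.57 for the tricarboxylic acid cycle, 0.0769 to 0.157 for mitochondrial and 0.0458 to 0.182 for cytosolic ribosomal proteins, 0.0136 to 0.0720 for translation factors, 0.11 to 0.32 for glycolysis, 0.10 to 0.29 for collagens, 0.0656 to 0.208 for other matrix, 0.0424 to 0.0934 for endothelial, 0.10 to 0.24 for macrophage, 0.44 to 0.87 for T cell, 0.24 to 0.53 for lymph node stroma, 0.25 to 0.50 for antigen presentation, 0.40 to 0.75 for interferon, 0.26 to 0.54 for mast cell, 0.43 to 1.84 for muscle, 0.0778 to 0.168 for unfolded protein response, 0.0857 to 0.175 for iron, 0.0652 to 0.118 for liver-type and 0.255 to 0.455 for imprinted genes. Median-of-ratios scaling gave 0.24 for mitochondrial ribosomal proteins, 0.0216 for translation factors, 0.15 for endothelial, 0.17 for pericyte, 0.27 for heat shock and 0.26 for iron genes. A mean of at least 10 gave 0.22 for adipokines, 0.36 for macrophage, 0.47 for nerve and 0.0356 for liver-type genes, and a mean of at least 1000 gave 0.0428 for mitochondrial ribosomal proteins, 0.0359 for pericyte and 0.35 for interferon genes. The causes were not tested. The highest or lowest library of a list changed under another scaling for 8 of 38 lists, among them endothelial, macrophage, glycolysis and other matrix genes. Of 520 values of named genes 5 moved by more than their SD over libraries.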
